A study of Mus musculus with 2 samples.

Results

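Clec4e encodes Mincle, a lectin on myeloid cells whose ligands include microbial glycolipids and molecules from dying cells. It pairs with the Fc receptor gamma chain (Fcer1g) and signals through the kinase Syk and the adaptor Card9 to the NF-kappaB pathway. Classical monocytes enter inflamed fat from the blood through the chemokine receptor Ccr2 and can mature there into macrophages, which take up lipid around dying adipocytes. The cells described here are monocytes selected by gene counts from visceral fat of obese mice, compared between hashtags with many and with few Clec4e counts.

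The selection found 310 cells among 15374 that carried 1 of 4 hashtags in the deposited cell names, or 2.02% (95% Clopper-Pearson interval 1.80 to 2.25%). A cell needed counts of Lyz2 (lysozyme) and Ccr2, and counts of at least 2 of the monocyte genes Plbd1, Ifitm6, Fn1, F13a1, Ly6c2 and Plac8. It also needed less than 10 CP10k (counts per 10000 counts of the cell) of the macrophage complement genes C1qa and C1qb together, no count of Flt3, a dendritic cell receptor, and less than 10 CP10k of the fibroblast genes Dcn and Lum together. Of the 367 cells named doublets in the deposited table, 1 passed as well and was left out. Each hashtag is an antibody barcode put on a cell suspension before pooling. Hashtags A0309 and A0310 were set against A0311 and A0312 because their cells held more Clec4e counts. The difference in Clec4e was therefore used to make the comparison and is given as a description.

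All cells came from a single pool, the stromal vascular fraction (the non-adipocyte cells) of epididymal white fat of male C57BL/6J mice. The pool mixed wild-type mice and mice lacking Mincle, and both had spent 15 weeks on a high-fat diet. Of this pool 20000 cells were loaded on a BD Rhapsody microwell device. No label used here ties a hashtag to a genotype or gives the number of mice behind it, so the hashtags are named by their codes and no genotype is assigned. The 4 sums are not replicates of a labelled group, and no test or p-value was computed.

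The number of selected cells differed more between A0309 and the rest than between the pairs. The gate held 137 of 3288 cells with A0309, 54 of 3537 with A0310, 65 of 3893 with A0311 and 54 of 4656 with A0312. These were 4.17% (3.51 to 4.91%), 1.53% (1.15 to 1.99%), 1.67% (1.29 to 2.12%) and 1.16% (0.872 to 1.51%) of each hashtag's cells, with Clopper-Pearson intervals that cover counting error only. A0309 alone stood above the others, and the pairs overlapped, since the share in A0311 was above that in A0310. Among cells with a count of Ptprc (the leukocyte antigen CD45) or Lyz2, the shares were 6.03%, 2.15%, 2.24% and 1.46%, in the same order of hashtags. A0309 supplied 137 of the 310 cells, so a mean over cells would lean on that hashtag. Levels were therefore computed per hashtag.

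**Figure D1:**
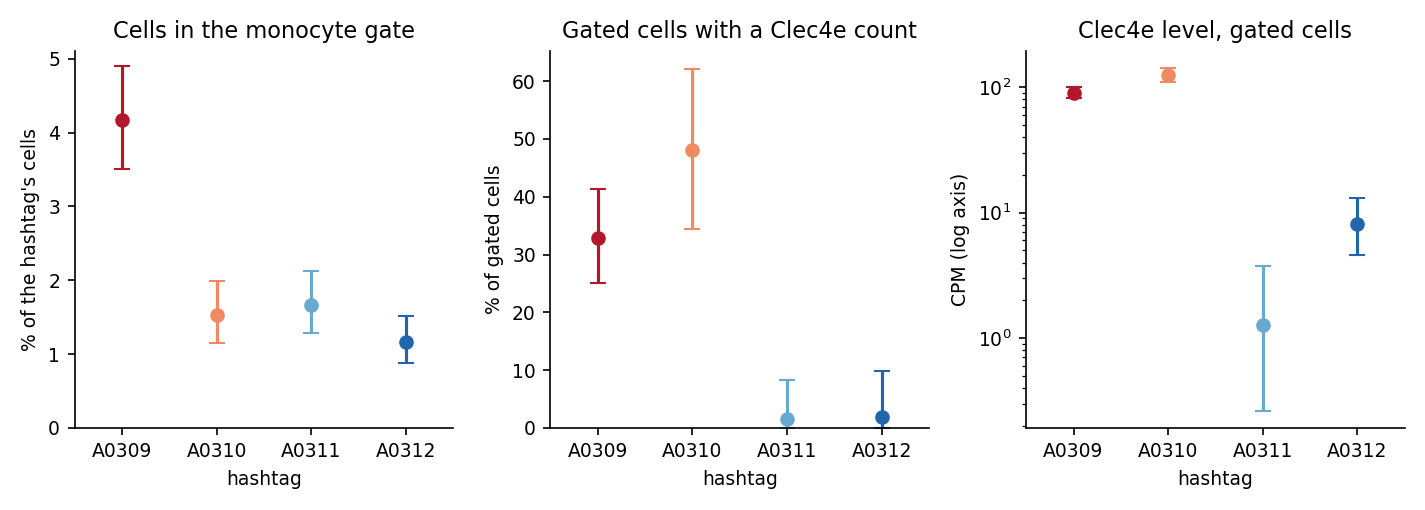
Share of each hashtag's cells in the monocyte gate (left, % of cells), share of gated cells with a Clec4e count (middle, % of gated cells) and summed Clec4e level (right, CPM, counts per 1000000 counts of the summed gated cells, on a log axis), with 95% Clopper-Pearson intervals for shares and 95% Poisson intervals for levels, both for counting error only. A0309 stands apart in the cell share at 4.17%, while A0309 and A0310 both stand far above A0311 and A0312 in Clec4e, the gene that set the pairs.

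The gated cells were of similar depth in the 4 hashtags. Their summed counts were 4636580 (A0309), 1911407 (A0310), 2346564 (A0311) and 1979548 (A0312), and their median counts per cell were 24995, 22107.5, 25313 and 19791.5. Mitochondrial genes held 3.95 to 4.81% and ribosomal protein genes 8.34 to 9.51% of the counts. The cell's own hashtag held a median of 98.0 to 99.0% of its tag counts. Of the gated cells, 298 had at least 10 tag counts with at least 75% from the own hashtag (96.1%), against 74.4% of all cells with a hashtag.

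Markers only partly bore out the name monocyte. Compared with 7288 cells of a macrophage gate in the same pool, the gated cells held more of a monocyte gene that the gate did not use. Chil3, a chitinase-like protein of classical monocytes, was at 38.3 CPM against 0.381 CPM. C1qc, not used by the gate but linked to C1qa and C1qb, was at 147 CPM against 2200 CPM in the macrophage gate. Only 14.2% of the gated cells had a count of Chil3, while 74.2% had Adgre1 (F4/80), 67.1% Trem2, a lipid receptor, and 74.2% Mmp12, a macrophage elastase. Ly6c2, the antigen that defines classical monocytes in blood, was counted in 85 cells (27.4%). The gated cells also held more class II antigen presentation transcripts than the macrophage gate, with Cd74 at 9952 against 5813 CPM, and more Cd209a, a lectin of monocyte-derived dendritic cells, at 101 against 1.66 CPM. The median depth was 24538 counts in the monocyte gate and 39943 in the macrophage gate. The selected cells thus carried transcripts of monocytes, of macrophages and of antigen-presenting cells, and they are called gated cells below.

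Most of the gated cells passed by several genes, and some lay near the limits. Exactly 2 of the 6 monocyte genes were counted in 112 cells (36.1%), and all 6 in 24 cells. A further 144 cells met every other condition with only 1 of the 6 genes. Inside the limit on C1q transcripts, 52 cells held 5 to 10 CP10k, and just outside it 88 cells held 10 to 20 CP10k. The condition on Flt3 left out 70 cells and that on Dcn and Lum left out 19. Plbd1, a lysosomal phospholipase, was counted in 86.1%, 85.2%, 69.2% and 74.1% of the gated cells of A0309, A0310, A0311 and A0312. Plac8 was counted in 21.2%, 33.3%, 40% and 38.9%. The mix of genes by which cells entered therefore differed between hashtags, with Ly6c2 counted in 19.0% of the A0309 cells and in 29.2 to 40.7% of the cells of the other hashtags.

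Clec4e, on the minus strand of chromosome 6 at chr6:123281789-123289870 (GRCm38, protein-coding), had 420 counts in the gated cells of A0309 and 240 in those of A0310, but 3 with A0311 and 16 with A0312. Its level was 90.6 CPM (95% Poisson interval 82.1 to 99.7) in A0309 and 126 CPM (110 to 142) in A0310. It was 1.28 CPM (0.264 to 3.74) in A0311 and 8.08 CPM (4.62 to 13.1) in A0312, where a single cell held all counts in each. The nearest hashtags of the opposite pairs, A0309 and A0312, differed 10.1-fold on the CPM + 1 scale. These counts are not known to be separate molecules, so the intervals cover counting error only.

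By cells, 45 of 137 gated cells of A0309 (32.8%) and 26 of 54 of A0310 (48.1%) had a Clec4e count, against 1 of 65 in A0311 (1.54%) and 1 of 54 in A0312 (1.85%). When each cell was thinned to 10000 counts, leaving out 3, 6, 2 and 4 shallower cells, the shares were 23.9%, 35.4%, 1.59% and 2%. In fibroblasts, which should lack Clec4e, 0.473%, 0.737%, 1.09% and 0.180% of cells had a count, at median depths of 33821 to 36166 counts. The intervals of the shares in the gated cells of A0311 (0.0389 to 8.28%) and A0312 (0.0469 to 9.89%) reached below that background. In the macrophage gate of the same hashtags the Clec4e level was 11.6, 17.2, 0.880 and 0.710 CPM, so the order of the pairs was the same there at a lower level. Neutrophils also express Clec4e. The 11 neutrophil markers in the table summed to 60.6, 59.1, 55.8 and 64.2 CPM in the gated cells. S100a9 and Camp had no count in the 310 cells, while Ly6g was counted in 18 of them (5.81%, against 0.0549% of the macrophage gate), Mmp8 in 19, Csf3r in 92 and Cxcr2 in 101. The part of neutrophil transcripts in the Clec4e values was not tested. The counts of Clec4e in A0311 and A0312 came from cells with 3 and 16 Clec4e counts, while the highest single cells of A0309 and A0310 held 41 and 44.

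Ccr2 itself, which each gated cell had to express, was at 840 CPM in A0309, 1002 CPM in A0310, 788 CPM in A0311 and 826 CPM in A0312. The pairs did not overlap, but the nearest hashtags differed by only 0.02 on the log2 scale. Ccr2 and Lyz2 were gate genes, so their levels describe the selection.

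For the other genes a rule of size was used in place of a test. Levels were set on the scale log2(CPM + 1), and a gene was called where each of the 4 differences between a hashtag of one pair and a hashtag of the other was at least 1, which is a 2-fold difference. Of 8784 genes with a mean of at least 10 CPM and counts in at least 5% of the gated cells, 32 were called higher in A0309 and A0310, which is 0.364% of the genes considered. A further 15, or 0.171%, were called higher in A0311 and A0312. With shares this low, the absence of a call in a short list of genes says little about its members. Without the condition on size, the pairs did not overlap for 1204 genes (13.7%) higher in A0309 and A0310 and for 1864 genes (21.2%) higher in A0311 and A0312. The median of the average cross difference, the mean of the 4 log2 differences for a gene, was -0.04. The median absolute difference was 0.27 between A0309 and A0310, 0.30 between A0311 and A0312, and 0.29 between hashtags of opposite pairs. For the typical gene, hashtags of opposite pairs thus lay about as far apart as hashtags of the same pair.

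**Figure D2:**
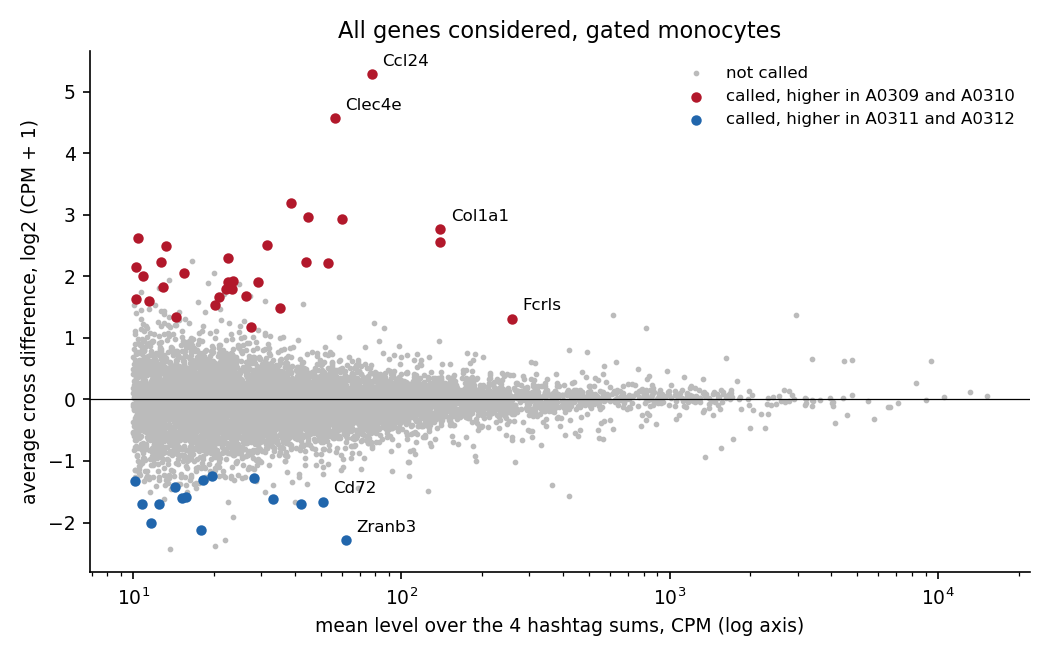
Average cross difference, in log2(CPM + 1), of the 8784 genes considered, against the mean level over the 4 hashtag sums (CPM, log axis). Points above 0 were higher in A0309 and A0310; the 32 genes called in that direction are red, the 15 called in the other are blue, and Ccl24 and Clec4e lie farthest from 0.

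Ccl24 (eotaxin-2), a chemokine for eosinophils made by alternatively activated macrophages, had a gap as large as that of Clec4e. The gap is the difference between the nearest hashtags of opposite pairs, and it was 3.41 for Ccl24 and 3.33 for Clec4e on the log2 scale. Ccl24 was at 101 CPM in A0309, 201 CPM in A0310, 0.426 CPM in A0311 and 8.59 CPM in A0312, in 23, 7, 1 and 4 cells. In A0310 a single cell held 84.2% of its counts. Without the highest cell of each hashtag Ccl24 was at 77.4, 31.9, 0 and 2.53 CPM and remained called. In a gate without cells that held markers of other cell types its gap was 0.76, and it was not called. In the macrophage gate the pairs overlapped, at 26.8, 4.36, 5.96 and 7.38 CPM. Of the 47 called genes, Clec4e and Ccl24 were the only ones with a gap above 3.

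Many of the other genes called higher in A0309 and A0310 are known from fibroblasts or endothelial cells, and a few cells held most of their counts. Among them were the collagen genes Col1a1, Col1a2, Col4a1, Col6a3, Col15a1 and Col18a1, the matrix genes Fbln2 and Nid1, and the endothelial genes Cldn5 (claudin-5, a tight junction protein) and Gpihbp1, which anchors lipoprotein lipase to capillaries. Col1a1, a chain of type I collagen, was at 417 CPM in A0309, 87.4 CPM in A0310, 31.1 CPM in A0311 and 23.7 CPM in A0312. One cell held 94.3% of its counts in A0309 and one held 63.5% in A0310. Gpihbp1 was at 24.4, 121, 6.39 and 4.04 CPM in 11, 7, 5 and 4 cells. Of the 32 genes, 22 had at least 50% of their counts in a single cell in A0309 or A0310.

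Summed over 12 fibroblast markers, all of which were counted in A0309 and A0310, the level was 2702, 1559, 541 and 507 CPM in the 4 hashtags. The 5 cells with the most of these counts held 87.5% of them in A0309 and 79.0% in A0310, against 40.6% and 43.5% in A0311 and A0312, where 5 and 2 of the 12 markers were at 0. The 12 endothelial markers summed to 175, 542, 355 and 49.0 CPM, so the pairs overlapped. Leaving out the 46 gated cells whose fibroblast and endothelial markers together reached 10 CP10k left 121, 40, 56 and 47 cells. Col1a1 was then at 23.2, 20.7, 23.1 and 22.5 CPM. Col1a1, Col1a2, Serpinf1, Cldn5 and Gpihbp1 were among the markers used, so their lower levels follow from how the cells were chosen. In the cells left, 14 genes were called higher in A0309 and A0310, of which 10 were among the 32. Those 10 were Clec4e, Ccl24, Cd2, Cd209d, Fcrls, Gfra2, Klrk1, Rsad2, St3gal3 and Ttc39b. In the other direction 29 genes were then called, 12 of them among the 15. The filter on level and cells was applied again to the cells left. Ciart (gap 1.06), Nfib (1.29) and, the other way, Pms2 (-1.39) kept a gap of the size for a call but failed that filter. This way of leaving out cells was chosen after the values were seen.

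Several of the 10 genes had counts spread over many cells. Fcrls, an Fc receptor-like scavenger molecule known from microglia, was at 401 CPM in A0309, 335 CPM in A0310, 161 CPM in A0311 and 134 CPM in A0312. It was counted in 78 of 137, 17 of 54, 31 of 65 and 18 of 54 gated cells. By share of cells A0310 was thus lowest and the pairs overlapped. No cell held more than 22.3% of its counts in any hashtag. Without the highest cell of each hashtag its gap was 0.999, just short of the size for a call. Gfra2, the receptor for neurturin, was at 59.5, 34.5, 12.8 and 10.1 CPM. Klrk1, which encodes the activating receptor NKG2D, was at 29.8, 31.4, 10.2 and 9.60 CPM in 32, 13, 3 and 5 cells, and Cd2, an adhesion molecule known from T cells, was at 65.6, 39.8, 16.6 and 18.7 CPM. In level, all 4 genes had both hashtags of one pair above both of the other. Summed over 16 markers of T and NK cells, the level was 216, 132, 145 and 137 CPM. Most of it came from Il7r, an interleukin receptor chain, at 114, 108, 130 and 124 CPM, which the macrophage gate held at 249 to 297 CPM. The other 15 markers summed to 102, 24.1, 15.8 and 13.1 CPM, apart and higher in A0309 and A0310, in the direction of Klrk1 and Cd2. This sum was high mainly in A0309. Thy1, 1 of the 15, was at 42.5, 5.23, 4.26 and 2.53 CPM, with 72.6% of its A0309 counts in 1 cell. The share of gated cells with at least 2 of the 16 markers was highest in A0311, at 18.5%, and lowest in A0312, so the pairs overlapped. The part of T and NK cells in the values of Klrk1 and Cd2 was not tested. In the macrophage gate the pairs overlapped for Fcrls (75.5, 46.5, 57.3 and 53.6 CPM), Gfra2 (16.7, 8.99, 10.2 and 7.61 CPM) and Cd2 (6.11, 3.12, 3.89 and 4.97 CPM). Klrk1 was low there but apart in the same direction as in the gated cells, at 1.76, 1.25, 0.891 and 0.668 CPM. Fcrls, Gfra2, Klrk1 and Cd2 lay outside the rule for named genes and were singled out after their values were seen.

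**Figure D3:**
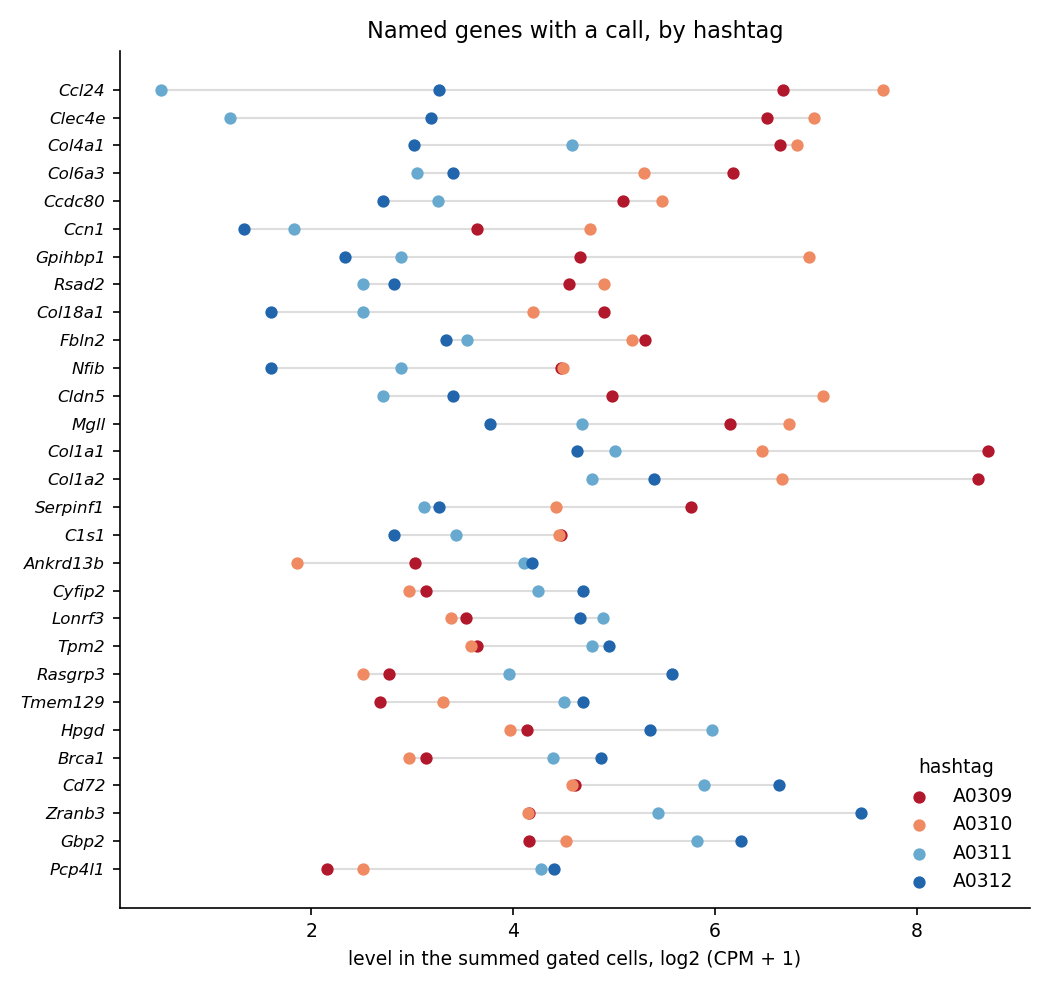
Levels of the called genes that the naming rule picked, in log2(CPM + 1) of the summed gated cells, 1 point for each hashtag (red shades A0309 and A0310, blue shades A0311 and A0312), ordered by gap. Ccl24 and Clec4e show the widest gaps; many genes below them are fibroblast or endothelial genes, such as Col1a1 at 417 CPM in A0309.

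The 15 genes called higher in A0311 and A0312 had smaller gaps, the widest being -1.76 for Pcp4l1. Pcp4l1 was at 3.45, 4.71, 18.3 and 20.2 CPM in only 4, 2, 7 and 6 cells, and 1 cell held 50, 77.8, 37.2 and 57.5% of its counts. It kept its call in 13 of 17 alternatives, but not in a stricter gate or in cells thinned to 10000 counts. Cd72, a C-type lectin of B cells and macrophages, was at 23.5 CPM in A0309, 23.0 CPM in A0310, 58.4 CPM in A0311 and 98.5 CPM in A0312. It was counted in 24 of 137, 13 of 54, 14 of 65 and 16 of 54 gated cells, so by share of cells the pairs overlapped. Gbp2, an interferon-induced guanylate-binding protein, was at 16.8, 22.0, 55.4 and 75.3 CPM, with 61.5% of its counts in A0311 from 1 cell. Without the 46 cells with stromal or endothelial markers Gbp2 was at 11.2, 20.7, 13.9 and 76.0 CPM, so that the pairs overlapped. Without each gene's highest cell in each hashtag, the gaps of Gbp2 (-0.46), Cd72 (-0.91) and Brca1 (-0.97) were below the size for a call. So were those of Lonrf3 (-0.47), Sfmbt1 (-0.69), Tpm2 (-0.97) and Cyfip2 (-0.97), also among the 15. Hpgd, which breaks down prostaglandins, was at 16.6, 14.6, 61.8 and 39.9 CPM. Brca1, a DNA repair gene, was at 7.76, 6.80, 20 and 28.3 CPM, and Zranb3, a helicase that restarts replication forks, at 16.8, 16.7, 42.2 and 173 CPM. For Cd72 and Zranb3 the levels in the macrophage gate were lowest in A0309 and close in the other hashtags, at 136, 217, 229 and 226 CPM for Cd72 and 122, 183, 176 and 204 CPM for Zranb3. The other genes of this group named by the rule were Tmem129, Rasgrp3, Tpm2, Lonrf3, Cyfip2 and Ankrd13b, with gaps from -1.20 to -1.08.

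The partners of Mincle differed far less than Clec4e. Of 11 genes considered on the list of Mincle signalling, Clec4e was the only one called. Among the other 10 genes the pairs were apart for 3 in the direction of A0309 and A0310 (Card9, Prkcd and Vav1) and for 2 in the other (Fcer1g and Nfatc1), against 13.7% and 21.2% of all genes considered, and no gap was above 0.34 in size. Fcer1g, the signalling chain of Mincle, was at 1072 CPM in A0309, 1119 CPM in A0310, 1219 CPM in A0311 and 1130 CPM in A0312. Syk was at 218, 230, 184 and 224 CPM, and its pairs overlapped. Card9 was at 23.5, 20.4, 16.2 and 9.09 CPM, lower in both A0311 and A0312, with a gap of 0.32. Among the targets and brakes of NF-kappaB, none of 16 genes was called, and the pairs were apart for 2 (12.5%) and 4 (25%), near the shares of all genes. Nfkbia, the inhibitor that NF-kappaB induces, was at 828, 932, 853 and 810 CPM.

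Class II antigen presentation genes leaned the same way as Clec4e, below the size needed for a call. Of 9 considered, none was called, 6 (66.7%) were apart and higher in A0309 and A0310, against 13.7% of all genes, and 1 (Ctss, a protease) was apart the other way, against 21.2%. The median average cross difference was 0.62, beside -0.04 over all genes considered. Cd74, the invariant chain, was at 11887 CPM in A0309, 10963 CPM in A0310, 7779 CPM in A0311 and 7018 CPM in A0312. H2-Aa was at 5504, 5335, 3828 and 3254 CPM, and H2-DMb1, a subunit of the peptide exchanger, at 671, 575, 405 and 325 CPM with the largest gap of the list, 0.51. Low values of Cd74 (all below 15) and of H2-Aa, H2-Ab1 and H2-Eb1 (at least those from 1 to 4) appear as 0 in the deposited counts. H2-Ab1, H2-Eb1 and H2-DMa were also higher in both A0309 and A0310. Ciita, the master regulator of these genes, overlapped at 116, 95.7, 99.7 and 92.4 CPM. Summed over the 10 genes of the list the level was 31631, 28917, 21725 and 19717 CPM. The dendritic cell markers summed to 547, 728, 569 and 774 CPM over 12 genes, of which Itgax, also expressed by macrophages, gave 188, 274, 180 and 369 CPM. Those of B cells summed to 56.9, 76.9, 99.3 and 112 CPM over 9 genes. The part of such cells in the class II levels was not tested.

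The genes of classical monocytes were divided. None of 18 was called, 4 (22.2%) were apart in each direction, against 13.7% and 21.2% of all genes, and the median was 0.21. Those higher in A0309 and A0310 were all gate genes, namely Fn1 (fibronectin) at 2007, 1958, 1122 and 1391 CPM, Plbd1, F13a1 (a clotting factor subunit) and Ccr2. Those higher in A0311 and A0312 were Plac8, also a gate gene, Chil3 at 19.4, 26.7, 39.6 and 91.9 CPM, Mgst1, a glutathione transferase, at 43.4, 71.2, 113 and 141 CPM, and Hp (haptoglobin) at 15.1, 28.3, 40.1 and 73.2 CPM. Ly6c2 overlapped at 115, 184, 95 and 146 CPM. For Chil3, Mgst1 and Hp, A0309 was lowest and A0312 highest, and A0310 and A0311 lay between.

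Genes of patrolling monocytes, which adhere to vessel walls and carry little Ly6c2, were higher in A0311 and A0312 wherever the pairs did not overlap. Of 10 considered, none was called, 6 (60%) were apart in that direction, against 21.2% of all genes considered, and none in the other, against 13.7%. The median was -0.42. Spn (CD43) was at 9.06 CPM in A0309, 17.8 CPM in A0310, 39.2 CPM in A0311 and 26.8 CPM in A0312. Fcgr4, an activating Fc receptor, was at 18.8, 26.7, 34.9 and 85.9 CPM, and Ace, a peptidase of these cells, at 26.5, 22.0, 35.8 and 57.1 CPM. Cx3cr1, their chemokine receptor, was at 61.7, 64.4, 66.5 and 96.0 CPM, where 3 of the hashtags lay close together. Nr4a1, the factor these cells depend on, overlapped, with A0310 highest at 420 CPM and A0311 lowest at 286 CPM.

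Genes of macrophage maturation showed a like lean with smaller differences. None of 18 was called, 7 (38.9%) were apart and higher in A0311 and A0312, against 21.2% of all genes, and none was apart in the other direction. The median was -0.28. Among the 7 was C1qa, a gate gene that the selection kept low, so its level describes the selection. It was at 48.3, 49.7, 75.4 and 76.8 CPM, with the widest gap of the list, -0.59. C1qc was at 119, 116, 155 and 232 CPM, and Trem2 at 413, 472, 525 and 748 CPM. Csf1r, the receptor for the macrophage growth factor, was at 587, 577, 482 and 588 CPM, where A0311 alone was low. Gpnmb, a lysosomal glycoprotein of lipid-laden macrophages, was at 607, 1787, 1289 and 2518 CPM, with A0309 lowest and the pairs overlapping. Summed over 12 macrophage markers the level was 3483, 4742, 4363 and 6983 CPM. The 5 cells with the most of these counts held 38.6%, 73.8%, 54.3% and 72.8% of the sum.

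**Figure D4:**
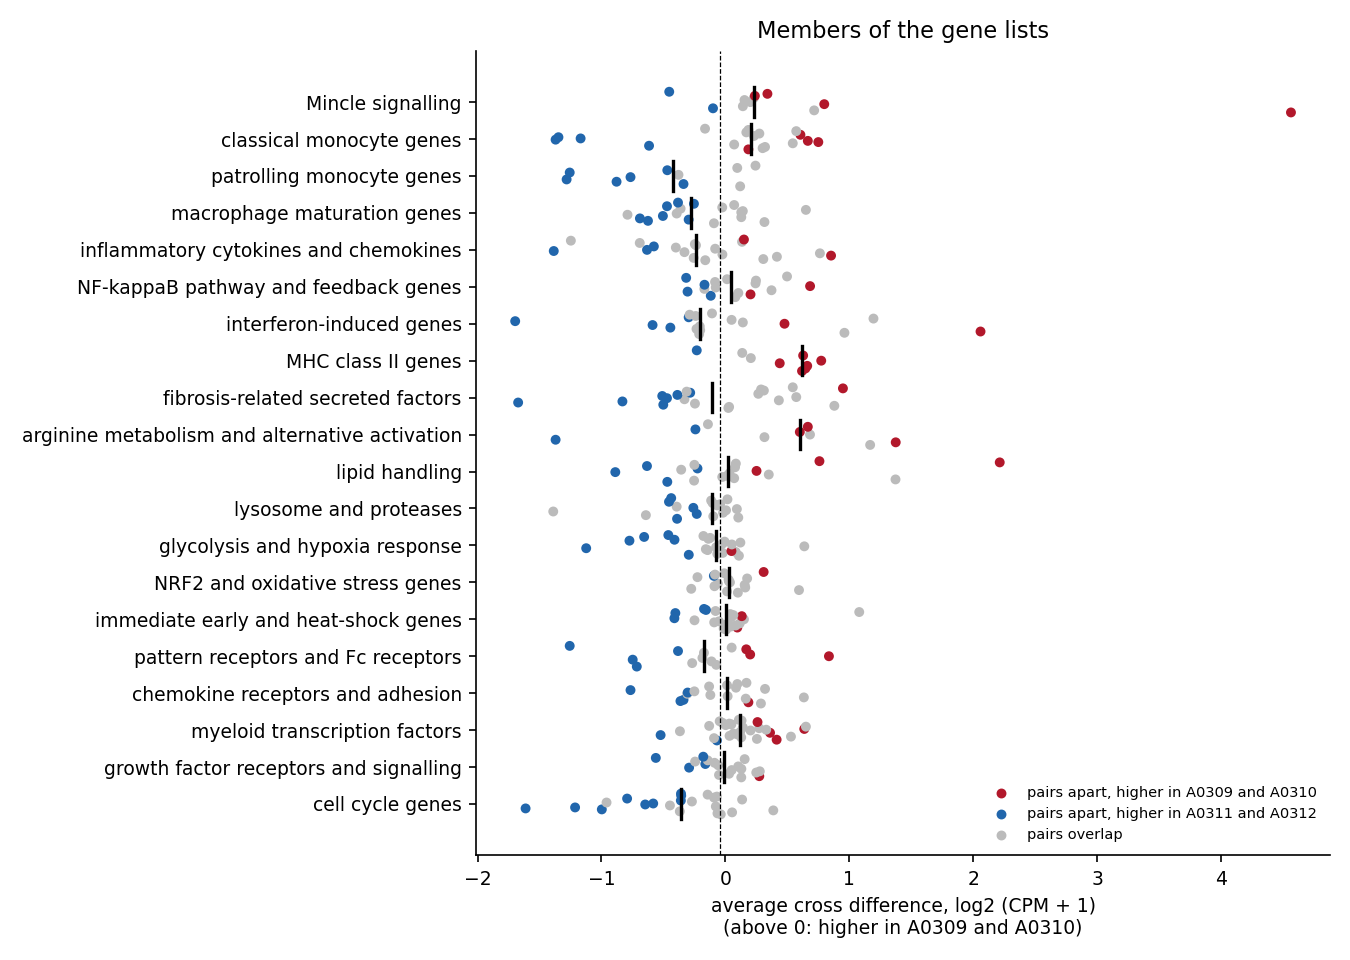
Average cross difference, in log2(CPM + 1), of each considered member of 20 gene lists; red points are genes whose pairs were apart and higher in A0309 and A0310, blue points those apart and higher in A0311 and A0312, grey points genes whose pairs overlapped. Black bars are list medians and the dashed line is the median of all 8784 genes, -0.04; the class II genes have a median of 0.62 and the patrolling monocyte genes one of -0.42.

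No inflammatory gene was called in either direction, beside 0.364% and 0.171% of all genes considered. Of 19 cytokines and chemokines considered, 2 (10.5%) were apart and higher in A0309 and A0310 and 3 (15.8%) the other way, both below the shares of all genes. Il1b, a cytokine that Mincle signalling can induce, overlapped at 233 CPM in A0309, 206 CPM in A0310, 157 CPM in A0311 and 382 CPM in A0312. Tnf overlapped as well, at 115, 91.0, 140 and 107 CPM, and so did Ccl2, the ligand of Ccr2, at 396, 197, 267 and 406 CPM. Il10, an anti-inflammatory cytokine, was higher in A0309 and A0310, at 87.8, 48.7, 38.4 and 33.3 CPM. Ptgs2, the inducible cyclooxygenase, was lower there, at 13.2, 23.0, 37.9 and 58.6 CPM, with a gap of -0.70.

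The interferon-induced genes held 1 call in each direction among 17 considered, beside 0.364% and 0.171% of all genes called. Of the 17, 2 (11.8%) were apart and higher in A0309 and A0310 and 4 (23.5%) the other way. These shares were near the 13.7% and 21.2% of all genes. Rsad2 (viperin) was at 22.4, 28.8, 4.69 and 6.06 CPM in 16, 5, 4 and 5 cells, with 50.0 to 70.9% of its counts in 1 cell of each hashtag, and it was not called in a stricter gate or in cells thinned to 10000 counts. Gbp2 lay the other way. Stat2, a transcription factor of the interferon response, was at 44.9, 49.7, 30.7 and 36.9 CPM, higher in both A0309 and A0310.

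Among 20 secreted factors with a known part in fibrosis, none was called, 1 was apart and higher in A0309 and A0310 and 7 (35%) the other way, against 21.2% of all genes. Tgfb1, the main fibrogenic cytokine, overlapped at 196, 245, 193 and 241 CPM. Ecm1, a matrix protein that also regulates TGF-beta activation, was at 220, 146, 89.1 and 96.0 CPM, with a gap of 0.60. Areg, an epidermal growth factor receptor ligand, was at 15.7, 5.75, 24.3 and 44.5 CPM, and Spp1 (osteopontin) at 98.8, 129, 156 and 158 CPM.

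Among 9 genes of arginine metabolism and alternative activation the median was 0.60 and none was called. Retnla, a secreted protein of alternatively activated myeloid cells, was at 5850 CPM in A0309, 2623 CPM in A0310, 2450 CPM in A0311 and 931 CPM in A0312, in 88, 19, 33 and 14 cells. A0310 and A0311 lay close together, with a gap of 0.10. Arg1 (arginase) overlapped at 17.0, 233, 86.1 and 8.59 CPM. Of 18 lipid genes, Mgll, a monoacylglycerol lipase, was the single call, beside 0.364% of all genes called in that direction. Of the 18, 3 (16.7%) were apart and higher in A0309 and A0310 and 4 (22.2%) the other way. The shares of all genes were 13.7% and 21.2%. Mgll was at 70.1, 105, 24.7 and 12.6 CPM, with 61.8 and 69.7% of its counts from 1 cell each in A0309 and A0310. Without the 46 cells with stromal or endothelial markers Mgll was at 23.9, 20.7, 0.925 and 13.4 CPM, with a gap of 0.59, and was not called. Angptl4, an inhibitor of lipoprotein lipase, was at 64.1, 58.1, 37.5 and 33.8 CPM. Cd36, the fatty acid transporter, was at 1763, 2011, 2234 and 3040 CPM. When the same 46 cells were left out, Angptl4 was at 31.0, 30.0, 37.0 and 35.3 CPM, the other way round.

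Cell cycle genes were higher in A0311 and A0312 where the pairs were apart. Of 22 considered, none was called, 9 (40.9%) were apart in that direction, against 21.2% of all genes, and none in the other. The median was -0.36. Ccne2, a cyclin of the entry to S phase, was at 7.55, 4.19, 14.5 and 25.8 CPM, and Mcm2, a subunit of the replication helicase, at 27.8, 20.9, 46.0 and 71.2 CPM. Pcna was at 364, 286, 427 and 549 CPM. Mki67, a general marker of cycling cells, overlapped at 117, 119, 141 and 104 CPM, as did Top2a at 130, 63.8, 87.4 and 104 CPM. Brca1 and Zranb3, called in the same direction, also act at replicating DNA. A link between their calls and the cell cycle genes was not tested, and Brca1 was not called without its highest cell in each hashtag (gap -0.97).

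The remaining lists held no call. The counts of genes apart in these lists are set against 13.7% (higher in A0309 and A0310) and 21.2% (higher in A0311 and A0312) of all genes considered. For the lysosomal genes 5 of 18 (27.8%) were apart and higher in A0311 and A0312, near the share of all genes, and none was apart the other way. Ctsb was at 3466, 3686, 4389 and 4999 CPM. For glycolysis and hypoxia 1 was apart in the direction of A0309 and A0310 and 6 in the other of 23, with Hk3 at 40.8, 45.5, 72.0 and 125 CPM. Of 28 myeloid transcription factors 4 and 2 were apart, with Batf3 at 149, 123, 85.7 and 87.9 CPM and Irf8 at 88.6, 95.7, 136 and 129 CPM. Both factors act in dendritic cell development, and they differed in opposite directions. Of 13 pattern and Fc receptors 3 and 4 were apart, of 18 chemokine receptors and adhesion genes 1 and 4, of 18 growth factor receptors 1 and 4, of 21 immediate early and heat-shock genes 2 and 4, and of 17 oxidative stress genes 1 and 1.

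The nearest genes to Clec4e on chromosome 6 did not share its gap. Of 63 other genes considered within 5 Mb, 1 was called higher in A0309 and A0310 and none in the other direction. That gene was C1s1, a complement protease that fibroblasts also make, 1.25 Mb away, at 21.1, 20.9, 9.80 and 6.06 CPM; once the 46 cells with stromal or endothelial markers were left out it was at 12.7, 4.01, 8.79 and 3.75 CPM and the pairs overlapped. Of the 63 genes, 8 (12.7%) were apart and higher in A0309 and A0310 and 16 (25.4%) the other way, against 13.7% and 21.2% of all genes considered. Over the whole of this chromosome, 6 of 422 genes were called higher in A0309 and A0310 (1.42%, against 0.364% of all genes) and none the other way. Clec4e is 1 of the 6, and its call follows from the choice of the pairs, so this share is not independent of that choice. The others were C1s1, Klrk1 at chr6:129610323-129623864, 6.33 Mb from Clec4e, and Col1a2, Mgll and Fbln2, farther away. Once the 46 cells were left out, C1s1, Col1a2, Mgll and Fbln2 were not called. Col1a2 was itself a marker by which those cells were chosen. Clec4d (the lectin MCL, which forms complexes with Mincle), the gene next to Clec4e at chr6:123262111-123275265, was at 46.6 CPM in A0309, 201 CPM in A0310, 40.1 CPM in A0311 and 85.9 CPM in A0312. The hashtag with low Clec4e and the higher Clec4d, A0312, lay between A0309 and A0310. The related lectin genes Clec4a2 (478, 444, 348 and 488 CPM), Clec4b1 (358, 250, 257 and 252 CPM) and Clec4a3 (191, 139, 135 and 141 CPM) also overlapped, and Clec4a1 (133, 160, 99.3 and 132 CPM) was apart by a gap of 0.01.

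Apobec1, a cytidine deaminase that edits messenger RNA, lies 0.70 Mb from Clec4e and was singled out after its values were seen. It was at 168 CPM in A0309, 181 CPM in A0310, 373 CPM in A0311 and 338 CPM in A0312, in 100, 41, 48 and 43 gated cells. Its gap of -0.90 fell just short of the size for a call. In the macrophage gate it was at 298 CPM in A0310, with A0309 close by, and at 717 CPM in A0311 and 689 CPM in A0312, so that both gates had the same order of the pairs, opposite to that of Clec4e. Gdf3, a TGF-beta family ligand beside Apobec1, was also chosen after its values were seen. Its level was 20.7, 16.2, 34.1 and 35.9 CPM in the monocyte gate and 49.1, 66.4, 103 and 97.0 CPM in the macrophage gate. In the monocyte gate it was counted in only 11, 3, 8 and 5 cells, and 1 cell held 30.2, 80.6, 50 and 74.6% of its counts.

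**Figure D5:**
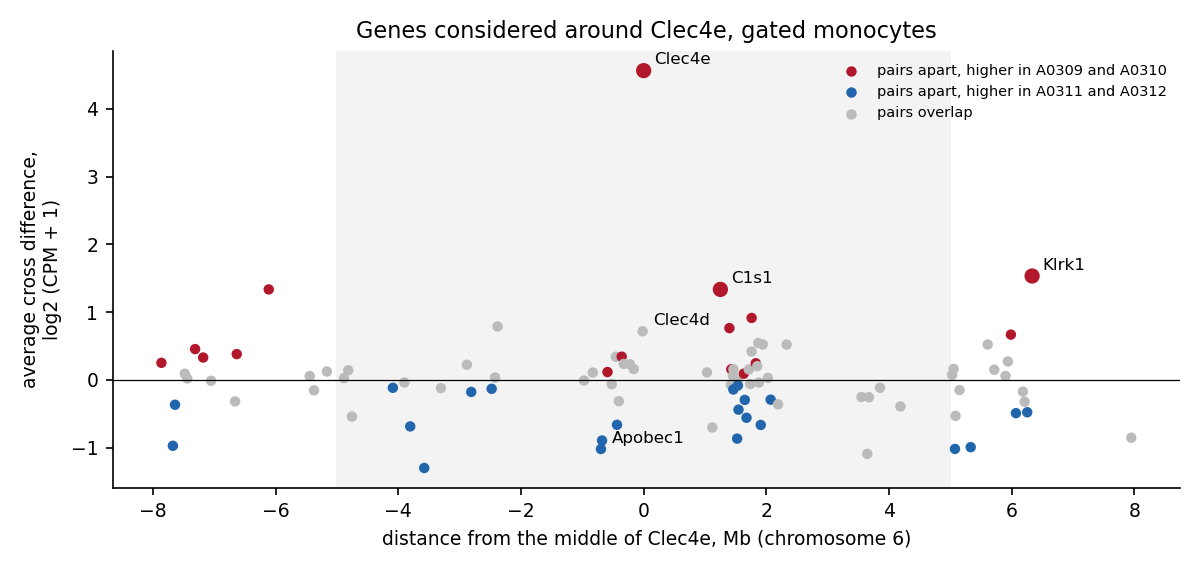
Average cross difference, in log2(CPM + 1), of the genes considered on chromosome 6, against their distance from the middle of Clec4e (Mb); colours as for the gene lists, larger points are called genes, and the grey band covers 5 Mb on each side. Clec4e stands alone in the band apart from C1s1, while Clec4d, the nearest gene, overlapped between pairs and Apobec1 lay on the other side of 0.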

How the data were processed

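The deposited transcript table gives raw counts for 15741 cells and 30084 genes, 651658017 in all. The sources used here do not say whether reads or molecules were counted. The submitters' processing notes list GRCm38, R 4.1.2, R 3.6.3, Bowtie2 2.4.2 and cutadapt 3.4 without their roles. In the deposited counts 68 genes, Lyz2, Fn1, C1qa, Dcn, Lum and Cd74 among them, have no value from 1 to 4. The lowest value above 0 was 68 for Dcn, 18 for Lyz2, 15 for Cd74, 10 for Fn1, 8 for Lum and 6 for C1qa. Values below these therefore appear as 0. A cell with C1qa, Dcn or Lum below its lowest value counts as having none and can pass the gate. One with Lyz2 below 18 does not pass. Hashtags were read from the deposited cell names. The deposited tag table holds counts of 15 hashtags in 758098 barcodes, and all 15741 cells were found in it.

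Counts of gated cells were summed for each hashtag with Python 3.11.15, numpy 2.4.6 and pandas 2.3.3, and divided by the hashtag's gated total to give CPM, counts per 1000000 counts. Differences were taken on log2(CPM + 1). A gene needed a mean of 10 CPM over the 4 sums and counts in 5% of gated cells. The size rule was tested on simulated sums drawn without single cells, so that test cannot cover genes with most counts in 1 cell. Doublets were left out as named by the authors; no doublet caller was run. Positions are from GENCODE vM21 on GRCm38, and 98.6% of the genes considered matched it. Of 471 listed genes, 11 were not analysed here.

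Besides Clec4e and Ccr2, the named genes were the 12 called genes with the widest gap in each direction, models without a gene name aside. From each of 32 lists the rule took up to 3 called members in each direction, the most abundant uncalled member and the uncalled member with the widest gap, and around Clec4e the 5 nearest genes and every called one. Other genes are given as members of their lists. Some listed genes are not reported here. The members, the lists and the pairs of hashtags were chosen with earlier results of these data known, and the pairs were selected on their Clec4e level. Alternatives changed the scaling, pseudocount, filter, fold, gate, depth and hashtags used.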

Additional observations from a re-analysis of the deposited data

Results flagged for a closer look

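In 4 of 90 values examined over the 4 hashtags, 1 hashtag stood far from the other hashtags, by a gap over the whole range above Dixon's 95% limit for 4 values. Chance gives this in about 1 of 20 groups. For the share of gated cells the ratio was 0.830, with A0309 at 4.17% and the others between 1.16% and 1.67%. For Csf1r, the receptor for macrophage colony-stimulating factor, it was 0.905, with A0311 low at 482 CPM and the others at 577 to 588 CPM. For Clec4b1 it was 0.915 and for Clec4a3 0.868, both lectin receptor genes near Clec4e, with A0309 high at 358 CPM and 191 CPM.

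The tag table holds 11 hashtags that no cell name carries. In the gated cells they had 140 of 1580829 tag counts (0.00886%), spread over 78 cells. A count of 0 would allow up to 0.00019% of the tag counts, for counting error only.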

How the results depend on the processing

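Clec4e was called in all 17 alternatives that were run, with gaps from 2.87 to 6.37. The pairs were chosen on their Clec4e level, so these calls follow from that choice and are given as a description. Ccl24 was called in 16 of 17, the exception being the gate without cells with other types' markers, at 0.76. The numbers of called genes changed by over 1.5 times under these settings. Against 32 genes higher in A0309 and A0310, there were 7 with a mean of 50 CPM required, 217 with no filter, 84 at 1.5-fold, 20 with a mean over cells in place of sums and 57 with cells thinned to 10000 counts. There were 14 without cells with stromal or endothelial markers and 20 without each gene's highest cell in each hashtag, both chosen after seeing the data. Against 15 genes higher in A0311 and A0312, there were 6 and 24 with a pseudocount of 5 and 0.1, 2 with the filter of 50 CPM, 111 with no filter, 134 at 1.5-fold, 26 with a mean over cells, 67 in a stricter gate (3 of the 6 genes, 5 CP10k of C1q), 87 in the gate without other types' markers, 45 with thinned cells and 29 without stromal or endothelial marker cells. Leaving out 1 hashtag compares 1 sum with 2 and so loosens the rule: it gave 55 to 165 genes higher in A0309 and A0310 (55 without A0310, 89 without A0309, 95 without A0312, 165 without A0311) and 79 to 224 in the other direction. The share of gated cells was 5.75% in A0309, 2.22% in A0310 and 2.18% in A0311 over cells that passed the tag rule, and 6.03%, 2.15% and 2.24% over Ptprc or Lyz2 cells. In the stricter gate it was 2.37%, 0.792%, 0.873% and 0.644%, in the gate without other types' markers 2.49%, 0.848%, 0.848% and 0.644%, and without stromal or endothelial marker cells 1.13% in A0310. The sole reversal was Col6a3, with a gap of -0.0466 without those cells. The causes of these shifts were not tested. No paired analysis was possible because the hashtags carry no replicate numbers. With 54 gated cells in each of A0310 and A0312, a gene in few cells rests on 1 or 2 of them, and a Clec4e count of 3 in A0311 allows 0.264 to 3.74 CPM.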
